A study of Homo sapiens with 5 samples.

Results

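The comparison described here sets GFP-SAS cells given a non-targeting small interfering RNA (siNT) against GFP-SAS cells given the DMSO vehicle. GFP-SAS is a squamous cell carcinoma line of the human tongue that carries green fluorescent protein. The pair was chosen by treatment label and takes 2 of the 5 arrays of the series. Each gene was read as the siNT value minus the DMSO value, after taking the median of the probe sets that name that gene alone, and 18239 genes could be read this way. The other 3 arrays held the same line given siAURKA-1 or siAURKA-2 (10 nM), which target the mitotic kinase gene AURKA, or the Aurora A inhibitor MLN8237 (100 nM). All exposures lasted 24 h, and 10 ng of total RNA per group was biotinylated with a GeneAtlas kit that transcribes from the 3' end, for 1 Affymetrix array each. No dose is given for siNT, since the labels leave it ambiguous. The sources used here give neither the siNT sequence nor the transfection reagent. The DMSO cells are a vehicle control and are not labelled as mock transfected, so the non-targeting RNA, the transfection procedure and the absence of DMSO cannot be told apart in any difference below.

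A small interfering RNA is delivered across the plasma membrane, usually in a lipid complex taken up by endocytosis, and one of its strands is loaded into an Argonaute protein. A non-targeting sequence is designed to have no full match among the cell's transcripts. Such RNAs are known to lower transcripts with short partial matches, and double-stranded RNA can be sensed in endosomes by Toll-like receptors and in the cytosol by RIG-I, which signal to interferon and NF-kB target genes. Cationic lipids are also known to alter membranes, lysosomes and lipid metabolism in cultured cells. Non-targeting controls are therefore the usual baseline for a knockdown, and vehicle controls the usual baseline for a drug.

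The deposited values are centred on each probe set's median over the 5 arrays, so a value near 0 is that gene's typical reading and carries no expression level. The squamous identity of the line could not be checked against marker levels for this reason. With 1 array per group there is no replicate check, no test was run, and no difference below has an error estimate. Genes were counted where they were at least 2-fold apart, a log2 difference of at least 1, and at 1.5-fold where stated. In a bulk RNA sample, a change in the mixture of cells and a change in RNA per cell cannot be told apart.

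The DMSO array had the lowest spike-in control medians of the 5 arrays, and MLN8237 the next lowest. The poly-A RNAs are bacterial transcripts spiked in before labelling. Their 24 probe sets had a median of 0 on siNT, -0.48 on DMSO, 0.168 on siAURKA-1, 0.136 on siAURKA-2 and -0.109 on MLN8237. All 24 were higher on siNT than on DMSO, by a median of 0.505 (range 0.0863 to 0.925), and DMSO was the lowest of the 5 arrays in 23. The 9 hybridisation spike-ins, added after labelling, were higher on siNT by a median of 0.215, with DMSO the lowest array in all 9. Their medians were 0 on siNT, -0.215 on DMSO, 0.0961 on siAURKA-1, 0.0321 on siAURKA-2 and -0.122 on MLN8237. The nonspecific control probe sets, named by the number of G and C bases from 3 to 25, ran in opposite directions at the ends of that range. The 8 with 3 to 10 such bases were between 0.0084 and 0.112 higher on siNT than on DMSO, and the 8 with 18 to 25 differed by -0.524 to -0.0305. At 25 bases the reading was -0.11 on siNT, 0.42 on DMSO, -0.09 on siAURKA-1, 0 on siAURKA-2 and 0.02 on MLN8237. The housekeeping GAPDH controls differed by -0.0236 to -0.00103 and the ACTB controls by -0.138 to 0.112. The part of these array differences in the gene results was not tested, and the difference of siNT from MLN8237, the other array whose labels name no siRNA (untransfected below), is therefore given beside the main results. That second difference shares the siNT array and carries the inhibitor on its other side. MLN8237 is not free of the spike-in shift, since its medians also lay below those of siNT. It put 24 genes 2-fold higher with siNT (0.132%) and 16 lower (0.0877%).

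**Figure D1:**
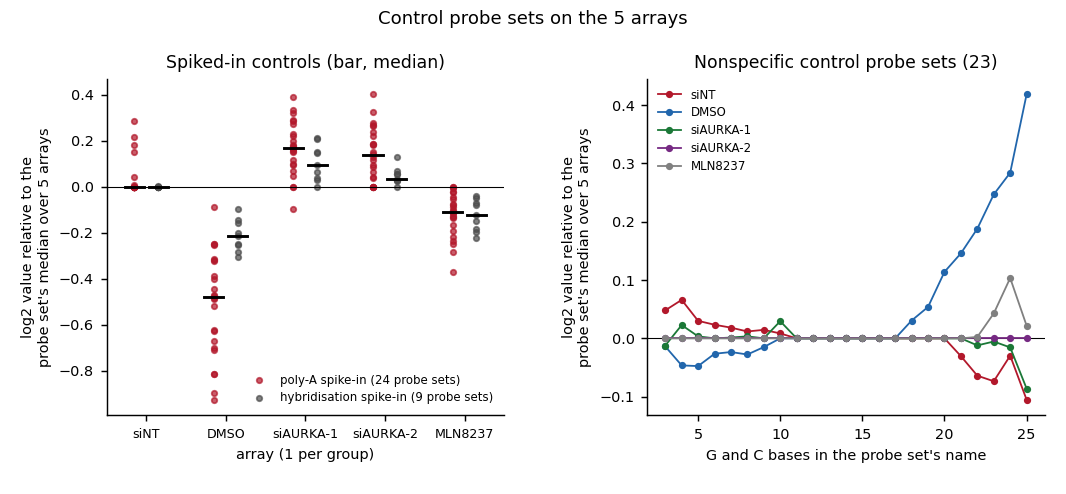
Control probe sets on the 5 arrays, 1 array per group, as log2 values relative to each probe set's median over the arrays. Left, the 24 poly-A and 9 hybridisation spike-ins (points) with their median (bar). The siNT medians are 0, the DMSO medians -0.48 and -0.215, and the MLN8237 medians -0.109 and -0.122. Right, the nonspecific controls ordered by the G and C bases in their names, where DMSO reaches 0.42 at 25 bases and siNT -0.11.

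Most genes read nearly alike with siNT and with DMSO. Over all 18239 genes the siNT minus DMSO difference had a median of 0, a mean of 0.02 and a standard deviation of 0.195, and its quartiles were -0.06 and 0.09. At least 2-fold, 42 genes were higher with siNT (0.23% of genes) and 12 were lower (0.0658%). Against MLN8237, 12 of these 42 were also at least 2-fold higher and 10 of these 12 at least 2-fold lower. Over all genes the shares were 0.132% and 0.0877%, and both comparisons share the siNT array. At 1.5-fold, 279 were higher (1.53%) and 101 lower (0.554%), and at 3-fold the counts were 8 and 1. The higher side therefore held 77.8% of the 2-fold genes. That share becomes 44.8% (60 higher, 74 lower) when the centred values are quantile normalised, which forces one spread on all arrays. The extremes of the siNT minus DMSO difference without that step were TMPRSS11E at 2.34 and RAB40B at -1.89. All 54 genes past 2-fold are annotated as protein coding.

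The genes furthest on the higher side were TMPRSS11E, HSD11B1, GBP1, VIM and PKIB, whose products have different roles. TMPRSS11E, a membrane-anchored serine protease of epithelia, read 1.82 on siNT, -0.52 on DMSO, -0.20 on siAURKA-1, 0.35 on siAURKA-2 and close to 0 on MLN8237. Its siNT reading was 5.07-fold above DMSO, and both of its probe sets shared that direction, although the names of both mark them as shared with other genes' transcripts. HSD11B1, the reductase that regenerates cortisol from cortisone, read 0.56 on siNT, -1.25 on DMSO, -1.16 on siAURKA-1, 1.12 on siAURKA-2 and 0 on MLN8237. The HSD11B1 difference of 1.81 was smaller than the distance between the siAURKA arrays, with DMSO the lowest array and siNT below siAURKA-2, whereas the siNT reading of TMPRSS11E lay 1.46 above the next highest array and the other 4 arrays spanned 0.88.

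VIM, the intermediate filament protein of mesenchymal cells, read 0.06 on siNT, -1.68 on DMSO, -3.66 on siAURKA-1, 0 on siAURKA-2 and 0.14 on MLN8237. Its difference of 1.74 from DMSO became -0.09 from MLN8237, so the low DMSO and siAURKA-1 readings set it apart. ANKRD1, a nuclear ankyrin-repeat protein widely used as a readout of the co-activator YAP, had the same shape, with 0.47 for siNT, -1.08 for DMSO, -3.51 for siAURKA-1, 0 for siAURKA-2 and 0.16 for MLN8237. The ANKRD1 values rest on 1 probe set. CD24, a small lipid-anchored surface glycoprotein, read 0.71 on siNT, -0.95 on DMSO, 1.30 on siAURKA-1, -1.74 on siAURKA-2 and 0 on MLN8237. For CD24 the siAURKA arrays lay further apart than siNT and DMSO did, and the gene rests on 1 probe set marked as shared with other genes' transcripts.

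Other genes with the siNT reading as the highest of the 5 arrays stood further from the remaining arrays. ALOX5AP, which presents arachidonic acid to 5-lipoxygenase, read 1.20 on siNT, -0.34 on DMSO, 0.02 on siAURKA-1, -0.68 on siAURKA-2 and 0 on MLN8237. ANGPTL4, a secreted inhibitor of lipoprotein lipase, read 1.20 on siNT, -0.04 on DMSO, -0.05 on siAURKA-1, 0 on siAURKA-2 and 0.02 on MLN8237. The other 4 arrays spanned 0.07 for ANGPTL4, which made it the most even background of the 3 genes whose siNT reading exceeded every other array by 2-fold or more, the others being TMPRSS11E and ALOX5AP. SPOCK1, a secreted proteoglycan, was 1.61 above DMSO and 1.24 above MLN8237 on the siNT array. ANXA10, an annexin of epithelia, read 1.32 on siNT, 0 on DMSO, 0.40 on siAURKA-1, -0.53 on siAURKA-2 and -1.18 on MLN8237, so its difference of 2.50 from MLN8237 was larger than that of 1.32 from DMSO. ALOX5AP, ANGPTL4, SPOCK1 and ANXA10 rest on 1 probe set each.

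GBP1, IL24, INHBA, PMEPA1, PLAU and CTSS, also among the 25 genes furthest on the higher side, are described with their gene lists below, and the others of the 25 are given here. PKIB, an inhibitor of cAMP-dependent protein kinase, was 1.69 higher with siNT than with DMSO over 5 probe sets that shared the direction. ACSL5, an acyl-CoA synthetase, was 1.49 higher, although its 3 probe sets ranged from 0.23 to 2.14. LAPTM5, a lysosomal membrane protein, was 1.497 higher. ANO1, a calcium-activated chloride channel, was 1.39 higher, but 1 of its 3 probe sets, the one not marked as shared with other genes' transcripts, read exactly 0. TFPI, the inhibitor of the tissue factor pathway of coagulation, read 0.08 on siNT, -1.20 on DMSO, 0.61 on siAURKA-1, 0 on siAURKA-2 and -1.11 on MLN8237, so both untransfected arrays lay below the 3 transfected ones. CREBRF, a regulator of the transcription factor CREB3, was 1.19 higher over 7 probe sets, and its difference from MLN8237 was 0.27. Further genes without a role given here, CXorf58 (1.57), FAM43A (1.33), ZBED2 (1.32) and TMEM156 (1.15), rest on 1 probe set each. Beyond these 25, the list continues with CXCL8, PTX3, TNFAIP3, INSIG1, PGM2L1, FERMT2, HBP1, YOD1, PRSS23, EFCAB14, NIPAL1, GPAT3, OSTM1, KLF4, GIMAP2, MARCKS and FAM24B.

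On the lower side, siNT was the lowest of the 5 arrays for all 12 genes, a position that their selection by a low siNT reading favours (16.9% of all genes had siNT lowest). RAB40B, a Rab-like GTPase that belongs to a ubiquitin ligase, read -1.90 on siNT, -0.01 on DMSO, 0.26 on siAURKA-1, 0.93 on siAURKA-2 and 0 on MLN8237. MYL12B, a regulatory light chain of non-muscle myosin, read -1.31 on siNT, -0.03 on DMSO, 0.15 on siAURKA-1, 0.27 on siAURKA-2 and 0 on MLN8237. C2orf15 was lower with siNT by a log2 difference of -1.15 from DMSO and -1.21 from MLN8237. These 3 genes had a siNT reading at least 2-fold below every other array, and each rests on 1 probe set, which for MYL12B is marked as shared with other genes' transcripts. MYL12A, the near-identical paralog of MYL12B, was 0.42 higher with siNT over 3 probe sets, so the assignment of signal between these copies is uncertain.

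The 6 lower genes with several probe sets had all of them on the same side. EGR1, an immediate early transcription factor, read -1.07 on siNT, 0.40 on DMSO, 0 on siAURKA-1, -0.51 on siAURKA-2 and 0.35 on MLN8237, and its 6 probe sets ranged from -1.62 to -0.54. MRS2, the magnesium channel of the inner mitochondrial membrane, read -1.42 on siNT, 0 on DMSO, 0.58 on siAURKA-1, -1.24 on siAURKA-2 and 0.17 on MLN8237, so siAURKA-2 read nearly as low as siNT. METTL9, a histidine methyltransferase, differed by -1.15, KIF3A, a motor subunit of kinesin-2 that serves cilia, by -1.09 and TPD52L2 by -1.07. ID1, which bone morphogenetic proteins induce and which blocks helix-loop-helix transcription factors, read -0.73 on siNT, 0.31 on DMSO, 0 on siAURKA-1, 0.35 on siAURKA-2 and -0.53 on MLN8237. The ID1 difference was thus -1.03 from DMSO and -0.19 from MLN8237. H2AC6 (-1.07), a replication-dependent histone H2A gene with near-identical copies, C6orf52 (-1.04) and RITA1 (-1.03), a tubulin-binding partner of RBPJ, rest on 1 probe set each. H2AC6 read -0.99 on siAURKA-1, nearly as low as on siNT, and 1.05 on siAURKA-2.

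**Figure D2:**
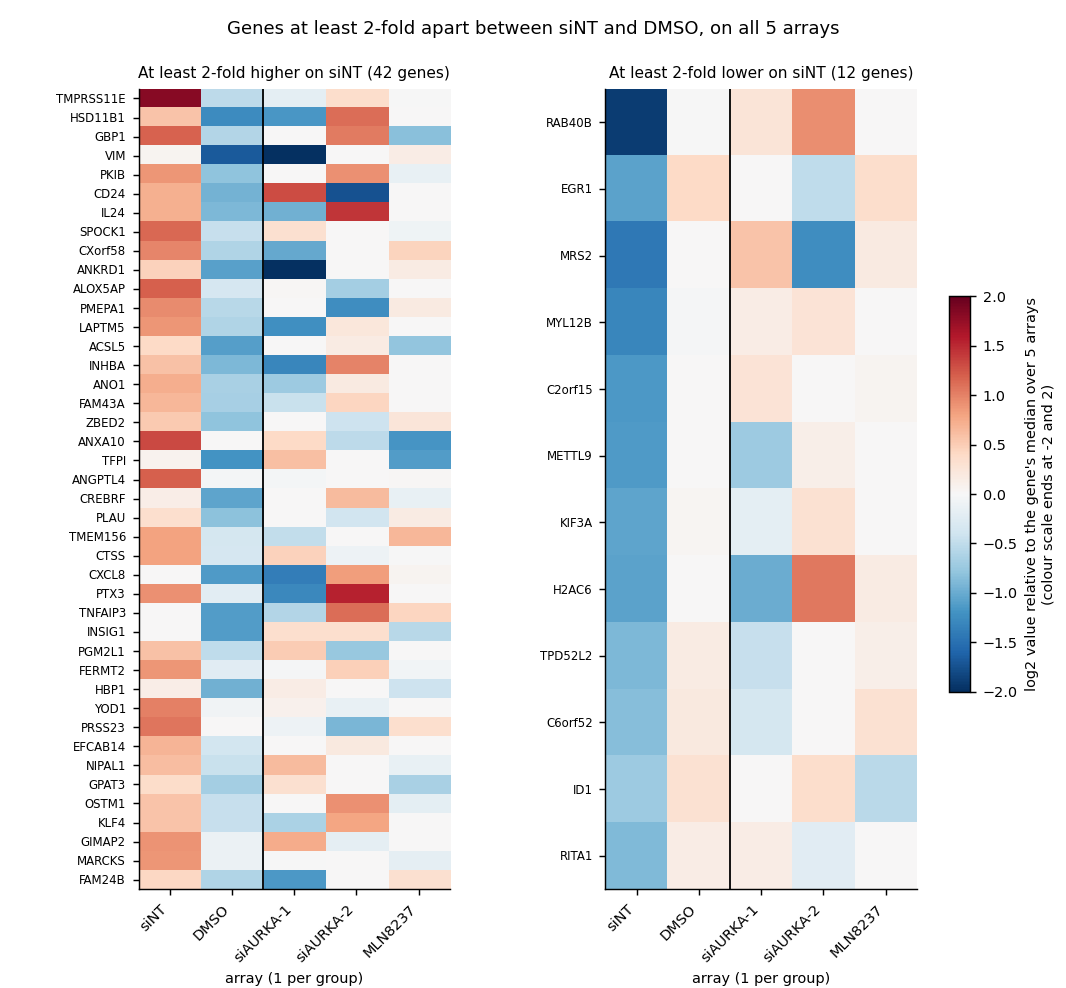
Log2 values of the 54 genes at least 2-fold apart between siNT and DMSO on all 5 arrays, each relative to the gene's median over the arrays, with 1 array per column and siNT and DMSO left of the black line. On the left are the 42 genes higher with siNT, of which 19 have DMSO as the lowest array; on the right are the 12 lower genes, for which siNT is the lowest array of all 5.

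The 2 sides differed in which array held the extreme reading. Among the 42 higher genes, siNT was the highest of the 5 arrays in 26 and DMSO the lowest in 19, with 10 genes in both counts. Over all genes siNT was the highest array in 18.9% and DMSO the lowest in 18.6%; the comparison itself selects for both, so these shares are given as description. At 1.5-fold, siNT was highest in 154 of the 279 higher genes (55.2%) and DMSO lowest in 135 (48.4%). Of the 101 genes lower at 1.5-fold, siNT was lowest in 82 (81.2%) and DMSO highest in 38 (37.6%), against 15.2% of all genes with DMSO highest.

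Just inside the 2-fold limit on the higher side were OSTM1 (1.03), KLF4 (1.03), GIMAP2 (1.03), MARCKS (1.01) and FAM24B (1.004). Just outside it lay ADAMTS1 (0.98), DRAM1 (0.98), C6orf114 (0.97), CCN2 (0.97) and REEP3 (0.96). On the lower side RITA1, ID1, C6orf52, TPD52L2 and H2AC6 were the nearest inside, and EIF1AX (-0.99931), CDK4 (-0.99825), GLRB (-0.98), SLC16A14 (-0.98) and ZNF428 (-0.96) the nearest outside. CDK4, the kinase that drives cells into S phase with cyclin D, read -0.53 on siNT, 0.47 on DMSO, -0.39 on siAURKA-1, 0 on siAURKA-2 and 0.16 on MLN8237, and all 4 of its probe sets were lower with siNT.

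To set the size of single differences beside pathways, 42 gene lists with 1007 measured genes were described by their median and counts. The lists were chosen with earlier results of these data known, so their counts are description and no measure of enrichment. Over all genes, 47.6% were above 0 and 39.6% below, 1.53% were 1.5-fold higher and 0.554% lower, and these shares are the background of each list's counts. Across the lists, 7 medians were at least 0.1 and 1 was at most -0.1. Of the 54 genes past 2-fold, 21 belonged to a list (17 higher, 4 lower) and 33 to none.

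**Figure D3:**
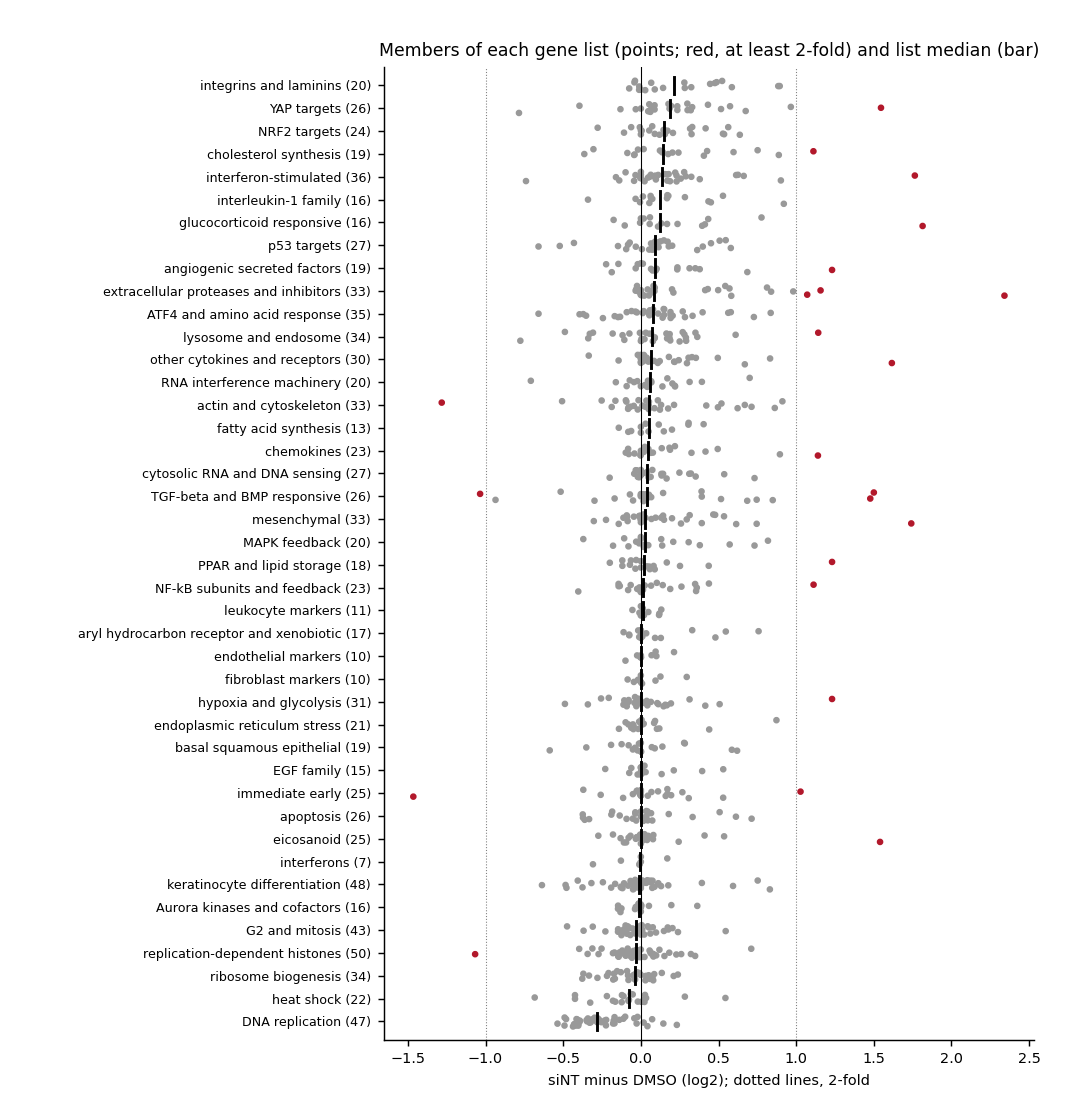
The siNT minus DMSO log2 difference of each measured member of the 42 gene lists (points, red where at least 2-fold) with the list median (black bar), lists ordered by median and the number measured in brackets. Integrins and laminins have the highest median (0.21) and DNA replication the lowest (-0.28), while the marker lists of other cell types lie close to 0.

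Genes of the interferon response were slightly higher with siNT as a group, with few large members. Of 36 measured interferon-stimulated genes, 27 were above 0 and 7 below (median 0.13), where 47.6% of all genes were above 0 and 39.6% below. Past 1.5-fold, 5 were higher and 1 lower, and the list median against MLN8237 was 0.15. GBP1, an interferon-inducible GTPase that attacks pathogen membranes, read 1.19 on siNT, -0.58 on DMSO, 0 on siAURKA-1, 1.04 on siAURKA-2 and -0.83 on MLN8237, and was 3.40-fold higher with siNT than with DMSO. Both untransfected arrays were the lowest for GBP1, and its 5 probe sets ranged from 0.87 to 2.10, with 0.87 from the one whose name does not mark it as shared with other genes' transcripts. GBP3, its chromosomal neighbour and close relative, was 0.90 higher than with DMSO and 0.90 higher than with MLN8237, and cross-reading between these copies cannot be separated here. ISG20, an exonuclease of viral RNA, was 0.66 higher, and the helicase-like DDX60 0.63 higher. IFIT1, which binds viral RNA caps and is among the most inducible interferon targets, went the other way, with -0.32 for siNT, 0.42 for DMSO, -0.16 for siAURKA-1, 0 for siAURKA-2 and 0.35 for MLN8237.

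Upstream of these targets, the differences were small. The 7 measured interferon genes had a median of -0.01, none was 1.5-fold apart, and the furthest was IFNE at -0.31. IFNB1, the interferon-beta gene, differed by 0.00. Among 27 sensors and adaptors of cytosolic RNA and DNA (median 0.04), IFI16, a nuclear and cytosolic DNA sensor, was the only one past 1.5-fold, at 0.73. RIGI, the cytosolic sensor of short double-stranded RNA, read 0 on siNT, -0.54 on DMSO, 0.02 on siAURKA-1, 0 on siAURKA-2 and 0 on MLN8237. For RIGI the DMSO array alone was low, and siNT equalled MLN8237. The 20 measured genes of the RNA interference machinery had a median of 0.06. SND1, a nuclease associated with the silencing complex, was lower with siNT (-0.71 from both DMSO and MLN8237). DICER1, which cuts microRNA precursors, was higher (0.70 from DMSO and 0.90 from MLN8237). AGO2, the slicing Argonaute, differed by 0.31.

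Inflammatory signals showed single large members within lists whose medians stayed near 0. Of 23 chemokines (median 0.05), 2 were 1.5-fold higher and none lower. CXCL8, which attracts neutrophils, read 0 on siNT, -1.14 on DMSO, -1.38 on siAURKA-1, 0.83 on siAURKA-2 and 0.06 on MLN8237. CCL20, the ligand of CCR6, read 0.17 on siNT, -0.72 on DMSO, -2.13 on siAURKA-1, 0.97 on siAURKA-2 and 0 on MLN8237. CXCL2, a related neutrophil attractant, was 0.49 higher with siNT than with DMSO but differed from MLN8237 by -0.33. TNFAIP3, the ubiquitin editor that shuts down NF-kB, was the one member of the 23 NF-kB genes past 1.5-fold, reading 0 on siNT, -1.11 on DMSO, -0.59 on siAURKA-1, 1.11 on siAURKA-2 and 0.43 on MLN8237. In these genes siNT lay in the middle of the 5 arrays or near it, DMSO and siAURKA-1 were low, and siAURKA-2 was high. From MLN8237 the siNT difference changed sign for CXCL8 (-0.06) and TNFAIP3 (-0.43).

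The promoters shown here are those of the 3 chemokine or NF-kB list genes with the largest difference whose promoter holds an NF-kB motif. Each runs 5' to 3' on the gene's strand, from 250 bases before to 50 bases after the RefSeq start site in GRCh38.p14, and capitals mark the NF-kB match GGANNTTCC, searched on both strands. The windows are chr4:73740319-73740618 on the plus strand for CXCL8, chr6:137867009-137867308 on the plus strand for TNFAIP3 and chr4:74099146-74099445 on the minus strand for CXCL2.
CXCL8: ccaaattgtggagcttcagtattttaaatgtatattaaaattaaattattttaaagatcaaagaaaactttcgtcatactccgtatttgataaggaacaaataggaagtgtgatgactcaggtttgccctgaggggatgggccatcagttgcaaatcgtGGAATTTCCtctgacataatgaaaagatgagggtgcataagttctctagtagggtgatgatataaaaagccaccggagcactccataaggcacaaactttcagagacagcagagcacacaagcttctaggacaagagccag
TNFAIP3: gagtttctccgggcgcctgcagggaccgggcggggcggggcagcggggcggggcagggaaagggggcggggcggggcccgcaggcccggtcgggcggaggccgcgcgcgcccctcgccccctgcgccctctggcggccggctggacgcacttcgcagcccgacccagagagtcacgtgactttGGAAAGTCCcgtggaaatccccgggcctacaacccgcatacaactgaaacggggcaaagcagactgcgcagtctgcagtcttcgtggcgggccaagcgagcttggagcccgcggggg
CXCL2: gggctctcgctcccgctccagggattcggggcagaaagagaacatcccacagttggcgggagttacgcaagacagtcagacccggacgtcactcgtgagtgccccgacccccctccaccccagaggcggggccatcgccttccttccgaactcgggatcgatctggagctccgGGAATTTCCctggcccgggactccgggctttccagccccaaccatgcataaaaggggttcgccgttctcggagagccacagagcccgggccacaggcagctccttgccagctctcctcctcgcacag
The match begins 91 bases before the start site in CXCL8, 67 in TNFAIP3, where it lies in the reverse complement, and 77 in CXCL2. The motif occurred in 4.55% of the 14492 promoters of measured genes, in 8 of 19 chemokine promoters (42.1%) and in 6 of 20 NF-kB list promoters (30%). Among the genes 2-fold apart it occurred in 4 of 39 promoters of the higher (10.3%) and 1 of 12 of the lower ones (8.33%). A match is a description of the letters and not a site shown to be bound.

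Other cytokine genes added a few larger differences. IL24, a cytokine of the interleukin-10 family, read 0.72 on siNT, -0.90 on DMSO, -0.95 on siAURKA-1, 1.43 on siAURKA-2 and 0 on MLN8237. The siNT minus DMSO difference of its 3 probe sets ranged from 0.403 to 1.985. IL6ST, the shared signalling receptor gp130, was 0.83 higher with siNT relative to DMSO, and IL7R, the interleukin-7 receptor chain, 0.67 higher. Of the 30 measured cytokines and receptors, 21 were above 0 and 3 below, where 47.6% of all genes were above 0 and 39.6% below. In the interleukin-1 family of 16 genes, 13 were above 0 (median 0.12), and CASP1, the protease that matures interleukin-1 beta, was the only one past 1.5-fold, at 0.92. CARD16, its neighbour and partial copy, was 0.96 higher, so their signals cannot be separated with confidence. PTX3, a secreted pattern-recognition protein, was 1.13 higher than with DMSO, with siAURKA-1 at -1.29 and siAURKA-2 at 1.54.

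YAP target genes lay mostly above 0. Of 26 YAP targets, 21 were above 0 and 4 below (median 0.19), where 47.6% of all genes were above 0 and 39.6% below. Past 1.5-fold, 3 were higher and 1 lower, against 1.53% and 0.554% of all genes. CCN2, the secreted connective tissue growth factor, read 0.81 on siNT, -0.15 on DMSO, -0.35 on siAURKA-1, 0.03 on siAURKA-2 and 0 on MLN8237. FJX1 was 0.67 higher and WWTR1, which encodes the YAP relative TAZ, 0.57 higher. IGFBP3, which binds insulin-like growth factors, differed by -0.78 from DMSO but by 0.80 from MLN8237. The list median was 0.20 when siNT was set against MLN8237.

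ANKRD1 had the largest difference of the YAP list, and its promoter is shown for its matches to the TEAD motif GGAATG, the letters bound by the DNA-binding partners of YAP. The window is chr10:90921038-90921337 on the minus strand in GRCh38.p14, from RefSeq, and capitals mark the 2 matches.
ANKRD1: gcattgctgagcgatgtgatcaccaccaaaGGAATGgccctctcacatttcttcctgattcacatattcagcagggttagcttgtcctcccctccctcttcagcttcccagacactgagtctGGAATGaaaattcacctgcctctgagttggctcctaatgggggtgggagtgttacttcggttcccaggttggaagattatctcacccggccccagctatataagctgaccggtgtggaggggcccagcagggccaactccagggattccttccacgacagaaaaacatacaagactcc
They begin 220 and 128 bases before the start site. The motif occurred in 11.5% of promoters of measured genes and in 8 of 19 promoters of the YAP list (42.1%). Among genes 2-fold apart it occurred in 4 of 39 higher (10.3%) and 3 of 12 lower ones (25%), and at 1.5-fold in 23 of 231 higher (9.96%) and 19 of 89 lower ones (21.3%).

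Adhesion genes gave the highest median of any list, 0.21 over 20 integrins and laminins, of which 14 were above 0 and 5 below. ITGA2, a subunit of a collagen receptor, read 0 on siNT, -0.89 on DMSO, 0.13 on siAURKA-1, 0.25 on siAURKA-2 and -0.56 on MLN8237. ITGAV, a subunit of vitronectin and fibronectin receptors, was 0.88 higher than with DMSO and 0.53 higher than with MLN8237. LAMB3, a chain of the basement membrane protein laminin-332, was 0.59 higher. Against MLN8237 the list median was 0.16.

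Secreted and surface proteases formed the list with the most genes 2-fold higher, 3 of 33 (0.23% of all genes), and 6 were past 1.5-fold, all higher (1.53% of all genes). Besides TMPRSS11E these included PLAU, the plasminogen activator urokinase, at 0.33 on siNT, -0.83 on DMSO, 0 on siAURKA-1, -0.38 on siAURKA-2 and 0.16 on MLN8237. PRSS23, a secreted serine protease, read 1.07 on siNT, 0 on DMSO, -0.11 on siAURKA-1, -0.91 on siAURKA-2 and 0.33 on MLN8237. ADAMTS1, which cleaves matrix proteoglycans, was 0.98 higher, and TIMP3, a matrix-bound inhibitor of metalloproteases, 0.84 higher. The list median of 0.08 was 0.13 against MLN8237.

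The list of 26 genes responsive to TGF-beta and bone morphogenetic proteins held members on both sides (16 above 0, 7 below, median 0.04). Past 1.5-fold, 5 were higher and 2 lower, against 1.53% and 0.554% of all genes. PMEPA1, a TGF-beta target that dampens that pathway, was 2.83-fold above DMSO and, on the log2 scale, 0.76 above MLN8237 on the siNT array. INHBA, the activin A subunit, read 0.58 on siNT, -0.90 on DMSO, -1.31 on siAURKA-1, 0.998 on siAURKA-2 and 0 on MLN8237. LTBP2, a latent TGF-beta binding family member, was 0.85 higher, and SKIL, a feedback repressor, 0.68 higher. ID2, like ID1 a target of bone morphogenetic proteins, read -0.88 on siNT, 0.05 on DMSO, 1.18 on siAURKA-1, -0.05 on siAURKA-2 and 0 on MLN8237. Among 33 mesenchymal genes (median 0.03), FN1, encoding fibronectin, was 0.75 higher and TNC, encoding tenascin C, 0.61 higher, beside VIM.

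Lipid and membrane genes differed most in cholesterol synthesis. Of 19 measured genes, 13 were above 0 and 6 below (median 0.14), and 4 were 1.5-fold higher with none lower. INSIG1, which retains the sterol-sensing complex in the endoplasmic reticulum, read 0 on siNT, -1.11 on DMSO, 0.34 on siAURKA-1, 0.33 on siAURKA-2 and -0.55 on MLN8237. MSMO1, a sterol oxidase, was 0.89 higher than with DMSO and 0.24 higher than with MLN8237, and HSD17B7 was 0.75 higher than with DMSO and -0.05 from MLN8237. Against MLN8237 the list median was -0.05, with 14 of 19 below 0 and 5 above, where 35.2% of all genes were below 0 and 50.9% above, so the direction of this list depended on which untransfected array was used. Of 34 lysosomal and endosomal genes, 23 were above 0 (median 0.07). CTSS, the protease cathepsin S, was 1.14 higher, whereas LIPA, the lysosomal acid lipase, was lower with siNT, at -0.78 from DMSO and -0.73 from MLN8237.

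The list with the lowest median was DNA replication, and its members differed by small amounts. Of 47 measured genes, 42 were below 0 and 5 above (median -0.28), where 39.6% of all genes were below 0, and none reached 1.5-fold. POLA1, the catalytic subunit of DNA polymerase alpha, read 0 on siNT, 0.54 on DMSO, -0.63 on siAURKA-1, -0.33 on siAURKA-2 and 0.24 on MLN8237. MCM6, a subunit of the replicative helicase, differed by -0.49 between siNT and DMSO and by -0.08 between siNT and MLN8237. POLE2, a subunit of the leading-strand polymerase, differed by -0.49 and 0.06 in these comparisons, and GINS2, part of the active helicase, by -0.48 and -0.15. The list's median reading was 0 on siNT, 0.31 on DMSO, -0.63 on siAURKA-1, -0.27 on siAURKA-2 and 0 on MLN8237. The DMSO array was thus the highest, siNT equalled MLN8237 in median, and the list median of siNT minus MLN8237 was 0, with 23 genes below 0 and 21 above. Of 43 genes of G2 and mitosis, 26 were below 0 (median -0.03), and against MLN8237 37 were below 0 (median -0.20). AURKA, the target of both other siRNAs, read 0 on siNT, 0.15 on DMSO, -3.36 on siAURKA-1, -2.64 on siAURKA-2 and 0.64 on MLN8237.

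**Figure D4:**
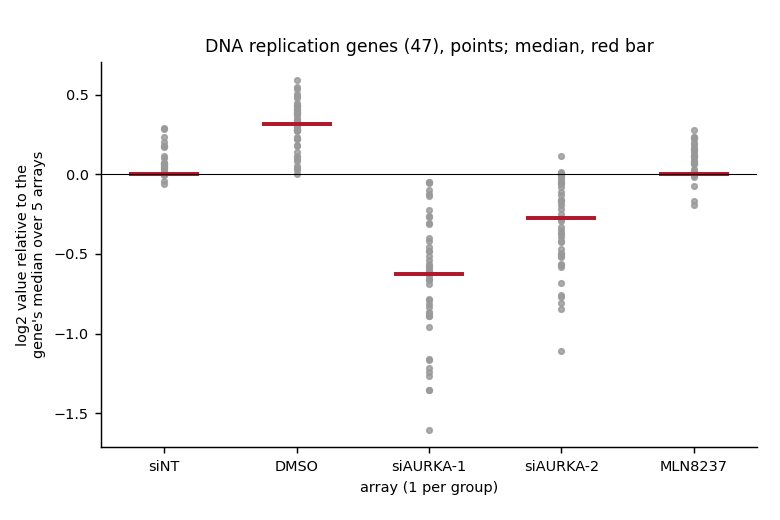
Log2 values of the 47 measured DNA replication genes (points) and their median (red bar) on each of the 5 arrays, relative to each gene's median over the arrays. The medians are 0 on siNT, 0.31 on DMSO, -0.63 on siAURKA-1, -0.27 on siAURKA-2 and 0 on MLN8237.

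The promoter of POLA1, which had the largest difference of the replication list, is shown for its match to TTTNNCGC, a motif of the E2F factors that turn on S-phase genes. The window is chrX:24693668-24693967 on the plus strand in GRCh38.p14, from RefSeq, and capitals mark the match, which is the reverse complement of those letters.
POLA1: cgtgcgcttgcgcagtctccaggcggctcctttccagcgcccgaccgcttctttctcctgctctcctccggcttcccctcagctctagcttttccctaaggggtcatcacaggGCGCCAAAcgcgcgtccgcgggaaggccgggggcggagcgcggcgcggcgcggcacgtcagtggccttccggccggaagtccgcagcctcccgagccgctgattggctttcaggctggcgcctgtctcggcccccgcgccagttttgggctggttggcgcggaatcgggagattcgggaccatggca
It begins 137 bases before the start site. The motif occurred in 24 of 42 replication promoters (57.1%), against 9% of the promoters of measured genes, in 3 of 39 promoters of genes 2-fold higher with siNT (7.69%) and in 0 of 12 of the lower ones. At 1.5-fold it occurred in 8 of 231 higher (3.46%) and 6 of 89 lower genes (6.74%).

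Stress and differentiation lists held isolated differences. Of 24 NRF2 targets, 18 were above 0 and 4 below (median 0.15), and AKR1B10, an aldo-keto reductase, was the one past 1.5-fold, at 0.64. Heat shock genes had a median of -0.08 with 15 of 22 below 0, led by the mitochondrial co-chaperonin HSPE1 at -0.68. DNAJB9, a chaperone of the endoplasmic reticulum, was 0.87 higher than with DMSO and 0.74 higher than with MLN8237, although the median of its 21-gene list was 0. DDIT4, an mTOR inhibitor induced by stress, was 0.84 higher, and SGK1, a glucocorticoid-induced kinase, 0.78 higher. Among p53 targets (27 genes, median 0.09), GDF15, a secreted stress cytokine, was lower with siNT, at -0.66. SPRY2, a feedback inhibitor of receptor tyrosine kinases, was 0.82 higher, and DUSP4, a MAP kinase phosphatase, 0.73 higher. Of 48 keratinocyte differentiation genes (median -0.01), 18 were above 0 and 28 below, where 47.6% of all genes were above and 39.6% below, with EMP1, an epithelial membrane protein, at 0.83 and KLK5, a skin protease, at -0.64. Of 19 basal squamous genes (median 0), 8 were above 0 and 9 below. Markers of leukocytes (11), fibroblasts (10) and endothelium (10) had medians of 0.01, 0 and 0.00, and none was 1.5-fold apart.

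The 3 arrays outside the comparison allowed the same genes to be read on samples that share neither siNT nor DMSO, as each siAURKA array minus MLN8237. These differences also carry the AURKA knockdown and the inhibitor. Of the 42 genes higher with siNT, 14 were above MLN8237 on both siAURKA arrays (33.3%, against 35% of all genes), 10 were below on both (23.8%, against 19.7%) and 18 were split. Of the 12 lower genes, 3 were below on both (25%) and 3 above on both. For the higher genes these shares are near the background. At 1.5-fold, 40.5% of the 279 higher genes were above on both, against 35% of all genes, and 17.2% were below on both, against 19.7%. Of the 101 lower genes, 34.7% were below on both, against 19.7% of all genes, and 26.7% were above on both, against 35%. The siAURKA-1 medians over the 2-fold genes were -0.03 for both the higher and the lower genes, and the siAURKA-2 medians 0.21 and 0.03.

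Individual genes did take the same side on all 3 transfected arrays. TFPI was 1.28 higher with siNT than with DMSO. Against MLN8237 it was 1.72 higher with siAURKA-1 and 1.11 higher with siAURKA-2, the only one of the 42 genes past 2-fold in each. Of all genes, 0.691% were 2-fold higher with siAURKA-1 than with MLN8237 and 0.384% with siAURKA-2. Those 2 differences share the MLN8237 array, on which TFPI read -1.11, and the share of all genes past 2-fold in both was not computed. ERP27, a chaperone-binding protein of the endoplasmic reticulum, gave 0.805, 1.16 and 1.16 in the same order, DNAJB9 gave 0.87, 1.24 and 1.08, and IFI16 gave 0.73, 1.02 and 1.13. PIR, CASP4, FBXO32, C1QTNF6, S100A9 and TM4SF1 completed the 10 genes highest on this measure. On the lower side IMPA2, an inositol monophosphatase, gave -0.88, -0.77 and -0.56, LMNB2, encoding lamin B2, gave -0.81, -0.69 and -0.43, and EGR1 gave -1.47, -0.35 and -0.86. These genes were picked for sharing a direction, which is therefore no independent observation.

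Others took opposite sides. TUBB2A, a beta-tubulin, was 0.71 higher with siNT than with DMSO but differed from MLN8237 by -1.23 with siAURKA-1 and -1.35 with siAURKA-2. GDF15 was -0.66 with siNT from DMSO but 1.37 with siAURKA-1 and 2.05 with siAURKA-2 from MLN8237. RAB40B was -1.89 with siNT from DMSO, against 0.26 with siAURKA-1 and 0.93 with siAURKA-2 from MLN8237, so its low reading was seen on the siNT array alone.

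**Figure D5:**
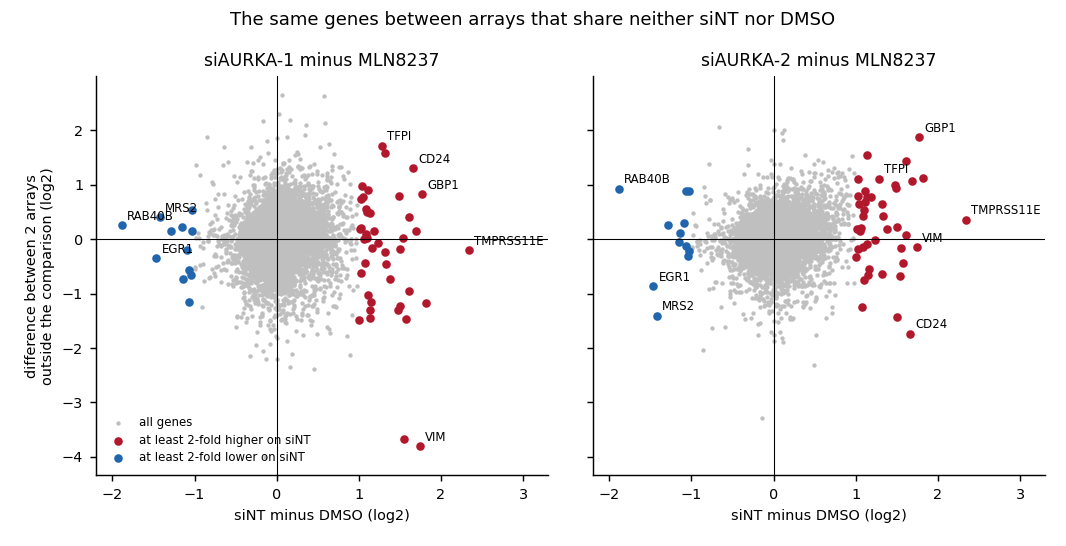
Each point is a gene, with the siNT minus DMSO log2 difference on the horizontal axis and, on the vertical axis, siAURKA-1 minus MLN8237 (left) or siAURKA-2 minus MLN8237 (right), 1 array per group. Red points are the 42 genes at least 2-fold higher with siNT and blue points the 12 lower genes; both lie on either side of 0 on the vertical axis, with TFPI above 1 in both panels and VIM at -3.80 on the left and -0.14 on the right.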

How the data were processed

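RNA of 5 groups of GFP-SAS cells was measured on 1 array each. The deposited signal was treated as log2. The method was robust multi-array average (RMA), per the submitters' processing notes; its software and version, and the log base, are not stated in the sources used here. The authors' table was centred, since the median over the 5 arrays was exactly 0 in all 49386 probe sets. That cancels between arrays but leaves no level, so low genes could not be filtered. Of the probe sets, 45259 named 1 gene, and 6416 genes (35.2%) had 1 probe set. Per gene and array the median of its probe sets was taken, then siNT minus DMSO; this order was settled with both orders' counts in view. The members and lists were chosen with earlier results of these data known. The naming rule took the 25 furthest genes each way, up to 5 per list, AURKA, 5 either side of 2-fold, and 10 per pattern on the outside arrays; the POLA1 promoter, CDK4 values, SKIL, CARD16, MYL12A, PTX3, IFNB1, neighbouring genes, control probe sets and gene families were added after values were seen. Promoters came from RefSeq. Alternatives were other thresholds, probe set summaries, scalings and untransfected arrays. Scripts used Python 3.11.15 with pandas 2.3.3, numpy 2.4.6 and matplotlib 3.10.9. Recovery of the median planted difference was checked on simulated data. Each planted shift there was the same in all probe sets of a gene and on siNT alone, unlike genes here whose probe sets differ. For arrays, their number limits the precision.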

Additional observations from a re-analysis of the deposited data

Results flagged for a closer look

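Probe sets left out of the per-gene values also held differences of at least 2-fold between siNT and DMSO. Of 1327 probe sets that name several genes, 3 were higher with siNT and 1 was lower, within a range of -1.09 to 1.08. Of 2713 with no listed gene, 9 were higher and 2 were lower, within a range of -1.75 to 1.97. These are 0.301% and 0.405% of the probe sets in each class, below the 0.608% of probe sets that name 1 gene. These values have no replicate check, and no gene is named for them.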

How the results depend on the processing

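Against the 42 genes higher and 12 lower at 2-fold, the counts were 279 and 101 at 1.5-fold and 8 and 1 at 3-fold. Limited to genes with 2 or more probe sets they were 26 and 6, and where all of these also share the direction, 25 and 6. The probe set with the largest standard deviation gave 139 and 41, with 17 list medians of at least 0.1 in size, against 8, and 61 of the 139 above MLN8237 on both siAURKA arrays, against 14 of 42. Quantile normalising the arrays again gave 60 and 74 (44.8% higher, against 77.8%), with 28 of the 60 above MLN8237 on both. This normalisation forces one spread on arrays whose standard deviations over probe sets were 0.167 for siNT and 0.139 for DMSO, against up to 0.293. It was applied to the centred values, and tied values were ranked in their listed order. The share of all genes above MLN8237 on both was not computed under either setting, so these counts of 61 and 28 have no background to be read against. Against MLN8237, siNT had 24 higher genes, and against the mean of DMSO and MLN8237 it had 26. Only 12 of the 42 were among those 24. Of the 54 genes, 48 kept a value when probe sets marked as shared were left out. Among the 54 genes and the 8 list medians of at least 0.1 in size, only the difference from MLN8237 turned a direction: VIM (-0.0855), CXCL8 (-0.0575), TNFAIP3 (-0.4279) and the cholesterol synthesis median (-0.0494). Without probe sets whose names mark them as shared with other genes' transcripts, ANO1 was at 0, GBP1 at 0.87, HBP1 at 0.61, INSIG1 at 0.94, MARCKS at 0.97, OSTM1 at 0.38, TNFAIP3 at 0.89 and KIF3A at -0.91, all short of 2-fold, and TMPRSS11E, CD24, FAM43A, PTX3, H2AC6 and MYL12B had no value. Differences taken per probe set first, an order added after the data were seen, gave 42 and 13, with EFCAB14 at 0.80. No paired analysis was possible because each group has 1 array. Leaving out a replicate was not possible for the same reason.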

Other observations

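Of 15 gene families grouped by symbol, looked at after the values were seen, 3 held a gene past 2-fold that is described above: the guanylate-binding proteins (7 genes, median 0.14), the annexins (11, median 0.18) and the ID factors (4, median -0.73). Several larger families had small differences spread over many members. Of 77 mitochondrial ribosomal protein genes, 53 were lower with siNT than with DMSO and 20 higher (median -0.09), where 39.6% of all genes were lower. Of 26 genes of small nuclear ribonucleoproteins and LSM proteins, which serve splicing, 23 were lower (median -0.08), as were 24 of 31 RNA polymerase subunits (median -0.08) and 18 of 23 subunits of mitochondrial import (median -0.12). Zinc finger genes with ZNF symbols ran the other way, with 309 of 495 higher and 132 lower (median 0.04). When siNT was set against MLN8237 instead, the medians were 0 for mitochondrial ribosomal proteins, -0.00 for the splicing proteins, -0.03 for RNA polymerase subunits, -0.03 for mitochondrial import and 0.02 for ZNF genes, and -0.12 for the ID factors. Cytosolic ribosomal proteins (74 genes) had a median of -0.01.

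Among measured genes at least 1.5-fold apart, 15 pairs were direct neighbours on a chromosome. How many such pairs would arise if these genes were spread at random was not computed, so the count has no background. GBP3 (0.90) lies next to GBP1 (1.76), CASP1 (0.92) next to CARD16 (0.96), and DDX60 (0.63) between ANXA10 (1.32) and DDX60L (0.90), all higher with siNT. MYL12B (-1.28) lies next to TGIF1 (0.81), RBM8A (-0.75) next to LIX1L (0.76) and AUH (-0.71) next to NFIL3 (0.66), in opposite directions. In the remaining pairs both genes lay on the same side.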
